A study of Mus musculus with 12 samples.

Results

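The Schlafen family was examined in IEC4.1 cells, a wild-type mouse line labelled as intestinal epithelial, by taking every row whose symbol was Slfn2, Slfn5, Slfn8 or Slfn9. Of these 4 genes, 3 were among the 15002 genes listed (Slfn5, Slfn8 and Slfn9), and Slfn2 was not analysed here. RNA-seq libraries came from 4 groups with 3 libraries each. siR_Ctrl cells received a scrambled siRNA, and siR_Nostrill cells received a pool of 3 siRNAs against the long noncoding RNA Nostrill at 120 nM for 24 h. The siR_Ctrl + IFN-γ and siR_Nostrill + IFN-γ groups were additionally exposed to interferon gamma at 1 ng/ml for 4 h. The dose and the times come from the published methods, and the labels give 24 h for each library. All groups share 1 cell line and transfection with siRNA, and no group without transfection was analysed. The extent of the Nostrill knockdown was not checked, as Nostrill RNA was not analysed here. The comparisons ask whether IFN-γ changed the Schlafen genes and whether the Nostrill siRNAs changed their level or that response.

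Schlafen proteins share an N-terminal domain that binds and in some members cuts RNA, tRNA in particular. The short member Slfn2 is known for its part in keeping T cells quiescent. The long members, which include Slfn5, Slfn8 and Slfn9, carry in addition a helicase-like C-terminal part. The family was first described in thymocytes, and several members are known as interferon-stimulated genes that restrict virus replication or protein synthesis. IFN-γ binds Ifngr1 and Ifngr2 and acts through the kinases Jak1 and Jak2, and interferon-responsive promoters are known to carry GAS elements or the interferon-stimulated response element (ISRE), which interferon regulatory factors bind.

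In the RefSeq annotation of GRCm38.p6 the mouse family forms a cluster of 9 genes over 335 kb at chr11:82951349-83286726. Slfn5 lies at chr11:82951349-82964850, Slfn9 at chr11:82974316-82991830 and Slfn8 at chr11:83002125-83020810. The start of Slfn9 is 40.5 kb from that of Slfn5 and 29.0 kb from that of Slfn8. In the deposited tables the Slfn rows are assigned to an alternate scaffold of the same assembly. Slfn9 and Slfn8 are close relatives, since their longest GENCODE vM21 transcripts were identical at 3511 of 3877 aligned bases (90.6%) and their promoters, taken from 250 bases before to 50 bases after the start, at 246 of 295 (83.4%). Exact copies of read length were rare, with 50 of the 5670 windows of 100 bases of the Slfn9 transcript (0.882%) found in Slfn8 and 181 (3.19%) found in the pseudogene Slfn10-ps. Of the 3912 windows of the Slfn8 transcript, 50 (1.28%) were found in Slfn9 and 105 (2.68%) in Slfn10-ps. Reads on those stretches cannot be assigned to 1 gene, and the sources used here do not say how the authors' counting divided them.

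The promoters were searched on both strands for an ISRE core, written GAAA, NN and GAAA without a gap, and for a GAS element, written TTCNNNGAA. The ISRE core was present in the promoters of Slfn5, Slfn8 and Slfn9 and not in that of Slfn2, against 1131 of 32851 promoters of the RefSeq table (3.44%). None of the 4 genes had a GAS match in this window, against 2726 of all promoters (8.30%), which says only that these letters were not present there. The windows of 30 bases below show how alike the matches of Slfn9 and Slfn8 are. Each is written 5′ to 3′ on the strand of its gene, with the ISRE core in capitals, and in Slfn9 and Slfn8 the core is read on the opposite strand. The Slfn9 window, at chr11:82991856-82991885 on the minus strand, begins its match 45 bases before the start. The Slfn8 window, at chr11:83020839-83020868 on the minus strand, begins it 48 bases before the start, and the Slfn5 window, at chr11:82951937-82951966 on the plus strand, 155 bases before. For Slfn5 this start is that of the promoter in the table, chr11:82951852-82952151, which lies inside the gene span given above and not at its first base. The windows of Slfn9 and Slfn8 were identical at 25 of 30 bases, the core included.
Slfn9: atccgagcagTTTCGTTTTCccaaaaacaa
Slfn8: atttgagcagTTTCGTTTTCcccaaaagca
Slfn5: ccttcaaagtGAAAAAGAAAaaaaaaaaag

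Gene-level reads per library ranged from 17824306 to 19093204. Each of the 15002 genes listed had reads in at least 1 siR_Nostrill library, whereas 616 had none in any siR_Ctrl library, 544 none with siR_Ctrl + IFN-γ and 629 none with siR_Nostrill + IFN-γ. The labelled cell type was checked against marker genes, and the data went against an epithelial label. Of 10 epithelial markers, 6 were listed, with a summed level of 1.27 to 3.17 FPKM (fragments scaled for transcript length and sequencing depth) per library, most of it Krt19. Krt8 did not exceed 0.28 FPKM, Vil1 0.07 FPKM and Cdx2 0.03 FPKM, and Epcam, Cdh1, Cldn3 and Cldn4 were not analysed here. By contrast, all 6 fibroblast markers were listed and summed to 372 to 650 FPKM, with Col1a1 between 176 and 315 FPKM, although Thy1 among them did not exceed 0.11 FPKM. T and B cell markers (5 of 8 listed) summed to 0.44 to 1.62 FPKM, with the kinase Lck at 0.39 to 1.61 FPKM. The pan-leukocyte marker Ptprc did not exceed 0.01 FPKM, Cd4 0.02 FPKM and Cd79a 0.36 FPKM. Myeloid markers (4 of 8 listed) summed to 1.35 to 2.58 FPKM, most of it Cd68.

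Slfn9, a long Schlafen of the same branch as Slfn8, made up nearly all Schlafen RNA in every library, with 95.7% to 98.9% of the summed FPKM of the 5 Slfn genes listed (median 97.7%). In siR_Ctrl cells its level was 14.1, 6.95 and 8.0 FPKM in the 3 libraries. With siR_Ctrl + IFN-γ it was 16.7, 9.37 and 21.7 FPKM. The groups overlapped, because siR_Ctrl replicate 1 lay above siR_Ctrl + IFN-γ replicate 2. In siR_Nostrill cells the level was 6.31, 6.88 and 8.97 FPKM. After IFN-γ it was 22.8, 22.3 and 16.4 FPKM. Here each library with IFN-γ lay above each without, as it also did in CPM (counts scaled to sequencing depth), a pattern seen in 16.6% of the 11900 genes tested.

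**Figure D1:**
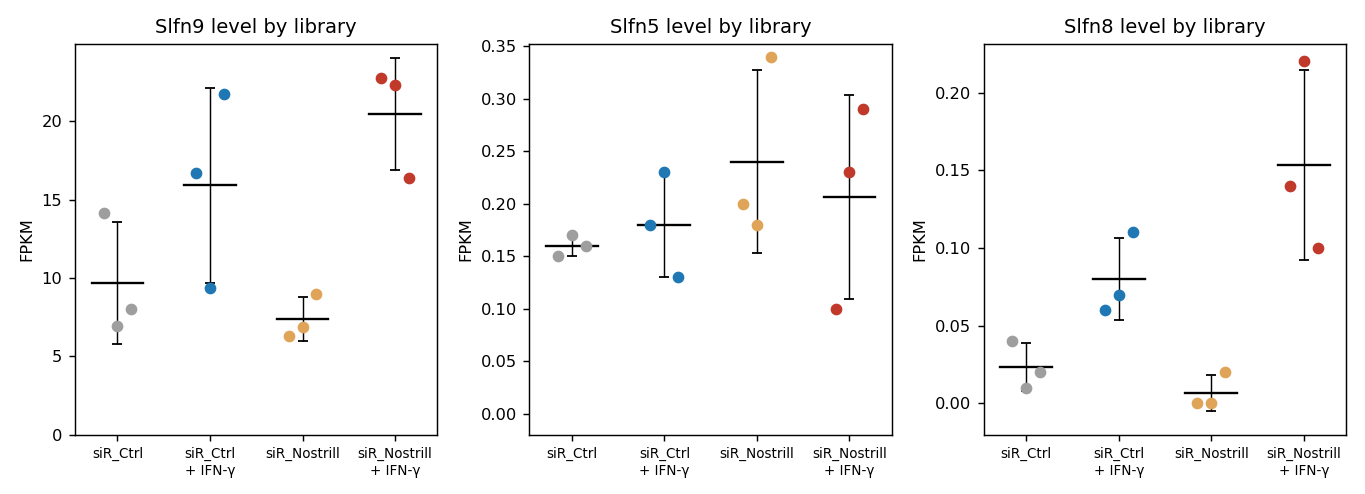
FPKM of Slfn9, Slfn5 and Slfn8 in each of the 12 libraries, in 3 panels with separate linear axes. Points are libraries in order of replicate number, horizontal lines are group means and bars are 1 SD (n = 3). Slfn9 lies between 6.31 and 22.8 FPKM, while Slfn5 and Slfn8 stay at or below 0.34 and 0.22 FPKM.

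Slfn9 rose with IFN-γ in both kinds of cells. In siR_Ctrl cells its mean went from 9.69 ± 3.88 to 15.9 ± 6.22 FPKM (SD, n = 3), 1.64-fold, and edgeR's quasi-likelihood test on counts gave a log2 fold change of 0.83 (SE 0.19, adjusted p = 0.0213). In siR_Nostrill cells it went from 7.39 ± 1.40 to 20.5 ± 3.56 FPKM (SD, n = 3), 2.77-fold, with a log2 fold change of 1.33 (SE 0.19, adjusted p = 0.000822 by edgeR). Of the 2 members that passed the filter on low counts, Slfn9 and Slfn5, 1 was thus called in each comparison, where 5.45% of the 11900 genes tested were called with IFN-γ in siR_Ctrl cells and 6.78% in siR_Nostrill cells. In an exact permutation test of CPM with IFN-γ labels exchanged within each siRNA, added after seeing the data, Slfn9 was higher by 60.3 CPM with IFN-γ (115 against 54.8 CPM, two-sided p = 0.01 of 400 arrangements). Within 1 siRNA, 3 libraries against 3 cannot go below p = 0.1, and the exact p was 0.2 in siR_Ctrl cells and 0.1 in siR_Nostrill cells. In bulk RNA, a change in the share of cells that carry a transcript and a change in RNA per cell cannot be told apart.

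By size, the response of Slfn9 was moderate. In siR_Ctrl cells 425 of 11900 genes had a larger log2 fold change, among them 348 of the 560 genes called higher, whose median was 1.05. In siR_Nostrill cells 231 genes had a larger change, among them 209 of the 623 called higher, whose median was 0.96. Slfn9 thus stood below the middle of the genes called higher in the one comparison and above it in the other.

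The call in siR_Ctrl cells was less stable than that in siR_Nostrill cells. It was lost when only the 2 groups compared were fitted (log2 fold change 0.84, adjusted p = 0.177 by edgeR) and in limma on FPKM (adjusted p from 0.312 to 0.379). Leaving out a single library also ended it in 4 cases by edgeR, namely replicate 2 (adjusted p = 0.0871) or replicate 3 (0.101) of siR_Ctrl and replicate 1 (0.0739) or replicate 3 (0.0839) of siR_Ctrl + IFN-γ. The call in siR_Nostrill cells was kept in each of the 11 other settings and with each of the 12 libraries left out, with adjusted p of 0.0269 at most.

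In 3 of the 4 groups the spread of Slfn9 moved with a length-related shift between libraries. With a length of 6366 nucleotides, the median over libraries of what FPKM and counts imply, Slfn9 was long, and 7.76% of the tested genes were longer. For each library, the median deviation from the group mean of 2907 genes over 4000 nucleotides minus that of 2563 genes under 1500 nucleotides was compared with the deviation of Slfn9. In siR_Ctrl replicate 1 the long genes were shifted by 0.66 on the log2 scale and Slfn9 by 0.40. In siR_Ctrl + IFN-γ replicate 2 they were shifted by -0.56 and Slfn9 by -0.35. In siR_Ctrl + IFN-γ replicate 3 the values were 0.48 and 0.28, so in siR_Ctrl cells the libraries with the highest and lowest Slfn9 in each group were those with the largest shifts of long genes. The shift was smaller in siR_Nostrill + IFN-γ libraries, from -0.24 to 0.19. In siR_Nostrill cells Slfn9 did not move with it, since the long genes were shifted by -0.18, -0.19 and 0.37 and Slfn9 by -0.05, 0.00 and 0.04.

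When the trend with length was removed from each library, the libraries of 3 groups drew together. This trend was fitted to each gene's deviation from its mean over all 12 libraries, not from its group mean. Any length-related difference between groups is thus removed with it, and the tests take the fitted trend as known. In siR_Ctrl cells Slfn9 lay between 5.59 and 6.22 log2 CPM before and between 5.66 and 5.73 after removal. In siR_Ctrl + IFN-γ cells the range narrowed from 6.31 to 6.94 to 6.61 to 6.72. In siR_Nostrill + IFN-γ cells it narrowed from 6.79 to 7.10 to 6.86 to 7.01. The siR_Nostrill group was the exception, with an SD of 0.046 before and 0.13 after. On this scale each library with IFN-γ lay above each without for both siRNAs, as was the case for 14.1% of the 11900 genes in siR_Ctrl cells and 21.4% in siR_Nostrill cells. The log2 fold change with IFN-γ was then 0.97 (SE 0.071, adjusted p = 1.42e-07 by edgeR) in siR_Ctrl cells and 1.09 (SE 0.071, adjusted p = 3.64e-08 by edgeR) in siR_Nostrill cells, where 11.1% and 19.0% of the 11900 genes were called.

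**Figure D2:**
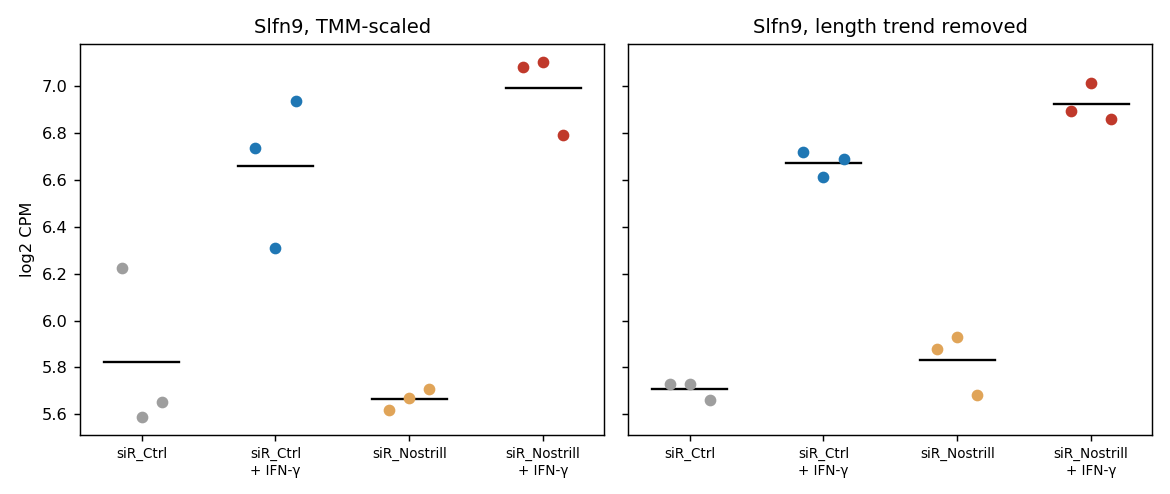
Level of Slfn9 in log2 CPM by library, TMM-scaled on the left and with the trend of each library with gene length removed on the right, on a shared axis that does not start at 0. Points are libraries and lines are group means (n = 3). With the trend removed, libraries without IFN-γ lie at or below 5.93 and libraries with IFN-γ at or above 6.61.

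FPKM itself carries a further length effect for Slfn9. The length that the authors' FPKM divides by, implied by counts and FPKM, was not constant for this gene and ranged from 5546 to 7654 nucleotides over the 12 libraries. Its coefficient of variation was 10.4%, against a median of 0.785% over 7413 genes with at least 5 FPKM in each library, of which 53 varied more. The length was lowest in siR_Ctrl replicate 1 and highest in siR_Nostrill replicate 1. Differences in FPKM between libraries were therefore partly differences in the divisor. The edgeR, DESeq2 and CPM permutation tests of Slfn9 rest on counts, whereas limma and the ratios between members rest on FPKM.

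Across the 4 groups the mean level of Slfn9 was lowest in siR_Nostrill cells, followed by siR_Ctrl, siR_Ctrl + IFN-γ and siR_Nostrill + IFN-γ cells. Neighbours in this order that carry different siRNAs were not called different. Without IFN-γ, the log2 fold change of siR_Nostrill over siR_Ctrl was -0.19 (SE 0.19, adjusted p = 0.561 by edgeR), and its sign turned to 0.12 with the length trend removed (3.46% of genes called, not Slfn9) and to 0.04 without siR_Ctrl replicate 1. With IFN-γ it was 0.31 (SE 0.18, adjusted p = 0.47 by edgeR). It was 0.15 without siR_Ctrl + IFN-γ replicate 2 and 0.46 without replicate 3 of that group, neither of them called, and with the length trend removed it was 0.25 and passed the threshold (adjusted p = 0.0302, 13.0% of 11900 genes called). None of the members tested was called in either comparison by the main test, where 0.218% of genes were called without and 0.429% with IFN-γ (1643 and 1730 of 11900 genes had an unadjusted edgeR p under 0.05). DESeq2 also did not call Slfn9 there (1.77% and 3.98% of 14993 genes called), and it gave Slfn5 no adjusted p.

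The IFN-γ response of Slfn9 was larger in siR_Nostrill than in siR_Ctrl cells by 0.50 on the log2 scale (SE 0.26, unadjusted p = 0.0814, adjusted p = 0.43 by edgeR), which did not pass the threshold. With single libraries left out it ranged from 0.27, without siR_Ctrl replicate 1, to 0.65, without siR_Ctrl + IFN-γ replicate 3, and was 0.33 without siR_Ctrl + IFN-γ replicate 2. With the length trend removed the difference was 0.13 (adjusted p = 0.487 by edgeR). No gene was called for this interaction (0.0% of 11900 by edgeR, with 1277 at an unadjusted p under 0.05, and 0 by DESeq2, with 1485).

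**Figure D3:**
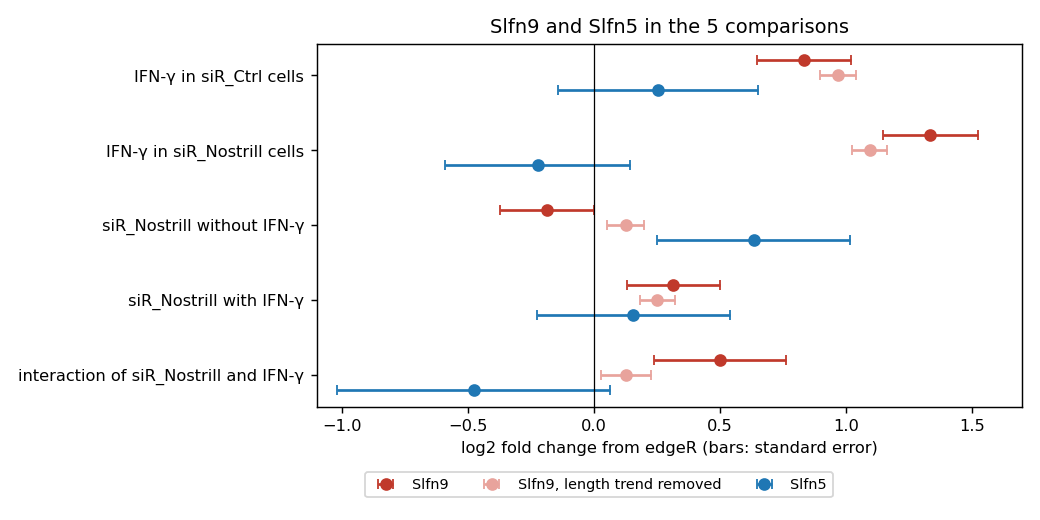
log2 fold changes from edgeR with standard errors for Slfn9, for Slfn9 with the length trend removed, and for Slfn5 in the 5 comparisons. Slfn9 lies at 0.83 and 1.33 with IFN-γ, and at 0.97 and 1.09 with the trend removed, while the values of Slfn5 have standard errors from 0.37 to 0.54.

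Slfn5, a nuclear long Schlafen that is interferon-regulated in other cells, was low in all groups. Its reads numbered 15.4, 18.3 and 17.1 in the siR_Ctrl libraries. With siR_Ctrl + IFN-γ they numbered 20.2, 25.3 and 14.4. The siR_Nostrill libraries had 20.8, 18.6 and 37.1 reads. These groups overlapped or nearly so, and the highest value belonged to a single library, siR_Nostrill replicate 3. With siR_Nostrill + IFN-γ there were 10.7, 24.2 and 30.9 reads, a range that covered almost all the others. The means were 0.16 ± 0.01, 0.18 ± 0.05, 0.24 ± 0.087 and 0.21 ± 0.097 FPKM (SD, n = 3) in the same order of groups.

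No comparison called Slfn5 by edgeR. The log2 fold change with IFN-γ was 0.25 (SE 0.40, adjusted p = 0.811) in siR_Ctrl cells and -0.22 (SE 0.37, adjusted p = 0.72) in siR_Nostrill cells. For siR_Nostrill it was 0.63 without IFN-γ (SE 0.38, adjusted p = 0.409) and 0.16 with IFN-γ (SE 0.38, adjusted p = 0.891). The interaction was -0.48 (SE 0.54, adjusted p = 0.601). The signs with IFN-γ in siR_Nostrill cells, and of siR_Nostrill with IFN-γ, turned when single libraries were left out. The value with IFN-γ in siR_Ctrl cells ranged from 0.013 without siR_Ctrl + IFN-γ replicate 2 to 0.48 without replicate 3 of that group. That of siR_Nostrill without IFN-γ ranged from 0.33 without siR_Nostrill replicate 3 to 0.79 without replicate 2. The interaction ranged from -0.83 without siR_Nostrill + IFN-γ replicate 3 to -0.15 without replicate 1 of that group. None of these passed the threshold.

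Slfn8, the close relative of Slfn9, had few reads and did not pass the filter on low counts. Its reads were 2.67, 1 and 1 in siR_Ctrl cells and 3.05, 4.05 and 6.72 with siR_Ctrl + IFN-γ. In siR_Nostrill cells they were 0, 0 and 1, so its place in the list rests on 1 read in that group. With siR_Nostrill + IFN-γ they were 9.78, 11.2 and 5.12. Although low, each library with IFN-γ lay above each without for both siRNAs, a pattern that 6.35% of all 15002 genes showed in CPM in siR_Ctrl cells and 14.2% in siR_Nostrill cells.

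The summed reads of Slfn8, rounded, were 14 against 5 in siR_Ctrl cells, a ratio of 2.69 per read sequenced (exact 95% interval 0.916 to 9.55), and 26 against 1 in siR_Nostrill cells, a ratio of 26.1 (4.29 to 1070). These intervals cover counting error only. Over both siRNAs the mean level was 0.363 CPM with and 0.052 CPM without IFN-γ. Without a filter on low counts, edgeR called Slfn8 with IFN-γ in siR_Nostrill cells (adjusted p = 0.00662, 4.86% of 14993 genes called) and not in siR_Ctrl cells (adjusted p = 0.431, 3.98% called). That fit did not call Slfn8 for siR_Nostrill without IFN-γ (0.12% of genes called), with IFN-γ (0.2%) or for the interaction (0.0%), for which its unadjusted p was 0.0369 and its adjusted p 0.499 by edgeR.

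Mean FPKM of Slfn8 with IFN-γ, 0.08 in siR_Ctrl and 0.153 in siR_Nostrill cells, was under 1% of that of Slfn9 in the same libraries, in which Slfn8 took at most 0.967% of the Schlafen total. Since both genes share some sequence, reads of Slfn8 were set against those of Slfn9. There were 1.46 per 1000 Slfn9 reads in siR_Ctrl, 2.44 in siR_Ctrl + IFN-γ, 0.363 in siR_Nostrill and 3.71 in siR_Nostrill + IFN-γ cells. Each of these proportions is smaller than the share of Slfn9 windows found in Slfn8 (0.882%). These proportions rest on few Slfn8 reads and were not tested, and the part of shared reads in them was not tested either. Summing both genes left the calls of Slfn9 as they were. The 2 remaining Slfn rows, the pseudogene Slfn10-ps and Slfn14, a long member that cuts RNA in reticulocytes, had 1.03 reads at most in any library.

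The responses of the 3 members to IFN-γ were compared pair by pair within libraries, as the log2 ratio of FPKM with 0.1 FPKM added to each. The ratio of Slfn9 to Slfn5 was higher by 1.12 with IFN-γ (exact permutation test within each siRNA, two-sided p = 0.03, adjusted over 3 pairs 0.045). The ratio of Slfn8 to Slfn5 was higher by 0.93 (exact p = 0.01, adjusted 0.03), which became 1.64 in CPM (adjusted 0.03) and 0.14 with 1 FPKM added, where the call was lost (exact adjusted p = 0.05). The ratio of Slfn9 to Slfn8 differed by 0.19 (exact p = 0.315), which became 0.87 with 1 FPKM added and -0.53 in CPM, both past the threshold, so that no order of these 2 members can be given. The 2 former calls were kept without 3 and without 6 of the 12 libraries, respectively, and were lost without each of the others, with adjusted p of 0.09 at most.

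The other genes of the pathway give a scale for these values. Of 18 tested genes of IFN-γ signalling, 11 rose with IFN-γ in siR_Ctrl cells and 12 in siR_Nostrill cells, where 5.45% and 6.78% of all genes were called. None fell, and the median log2 fold changes were 1.57 and 1.59, against -0.01 and 0.00 over all genes tested. Usp18, which removes ISG15 and dampens interferon receptors, rose by 3.81 (SE 0.20) in siR_Ctrl cells and by 3.07 (SE 0.18) in siR_Nostrill cells. Irf1, a regulator that binds ISRE-type sequences, rose by 3.57 (SE 0.10) and 3.23 (SE 0.10) in the same order, in siR_Ctrl cells from 50.9 ± 4.05 to 578 ± 15.6 FPKM (SD, n = 3). Changes at the other end were Ifnar2, a type I interferon receptor chain, with 0.88 (SE 0.085) and 0.70 (SE 0.085), and the kinase Jak2, called in siR_Nostrill cells, with 0.64 (SE 0.13) there and 0.38 (SE 0.13, adjusted p = 0.15 by edgeR) in siR_Ctrl cells. The receptor chains Ifngr1 and Ifngr2 were not called with IFN-γ.

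A second list held genes that, like Schlafen proteins, act on RNA or translation. Of 22 tested, 14 rose with IFN-γ in siR_Ctrl cells (median log2 fold change 1.03) and 12 in siR_Nostrill cells (median 1.13), and none fell, against 5.45% and 6.78% of all genes tested called and medians of -0.01 and 0.00. Oas2, which makes the activator of the ribonuclease RNase L, rose by 4.51 (SE 0.38) and 3.60 (SE 0.32), and its relative Oasl2 by 3.76 (SE 0.15) and 3.09 (SE 0.15). Eif2ak2, the kinase PKR that halts translation on double-stranded RNA, rose by 1.56 (SE 0.085) and 1.49 (SE 0.084). The smallest change called in siR_Ctrl cells was that of Zc3hav1, an antiviral protein that targets CpG-rich RNA, with 0.64 (SE 0.15), and the value was 1.0 (SE 0.15) in siR_Nostrill cells. The tRNA-linked genes Ang, Rnh1, Trdmt1 and Nsun2, and the stress genes Gcn1, Eif2ak4 and Atf4, were not called in either by edgeR. DESeq2 called Nsun2 with IFN-γ in siR_Nostrill cells (8.87% of 14993 genes called), where its edgeR log2 fold change was -0.22 (adjusted p = 0.0924). In siR_Ctrl cells Slfn9, at 0.83, lay near the lower end of the genes of both lists that were called there. Its value of 1.33 in siR_Nostrill cells lay above the median of the tested genes of the second list (1.13) and below that of the first (1.59).

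**Figure D4:**
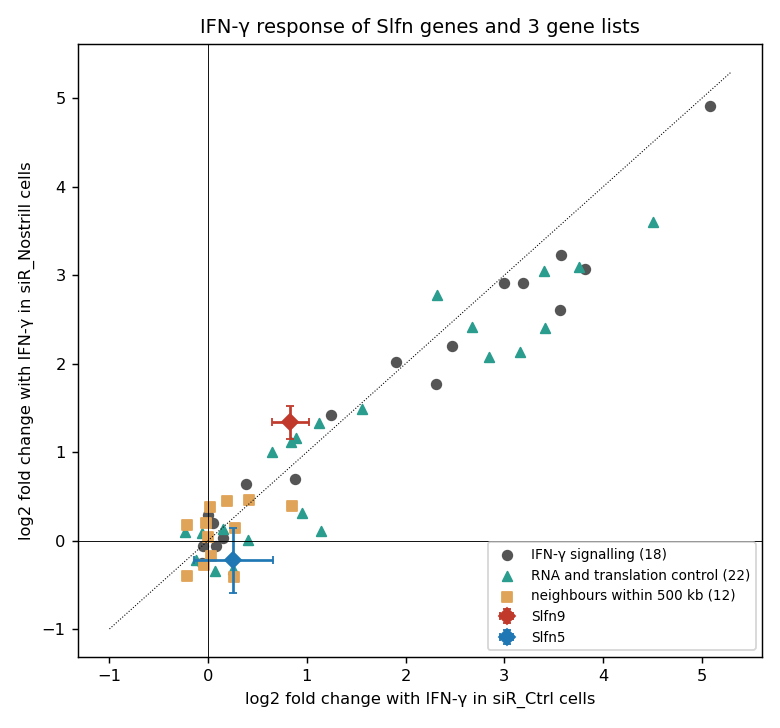
log2 fold change with IFN-γ in siR_Ctrl cells (x axis) and in siR_Nostrill cells (y axis) for the tested genes of 3 lists, with Slfn9 and Slfn5 and their standard errors. The dotted line marks equal values. Slfn9 lies at 0.83 and 1.33 and Slfn5 at 0.25 and -0.22, while Usp18 lies at 3.81 and 3.07.

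Between siRNAs, edgeR called 1 of 18 genes of the first list and 3 of 22 of the second without IFN-γ, where 0.218% of all genes were called, and 1 of 18 and 0 of 22 with IFN-γ, where 0.429% were called. At an unadjusted edgeR p under 0.05 the second list had 6 of 22 with IFN-γ, against 14.5% of all genes. Without IFN-γ, siR_Nostrill cells had higher Oasl1 (log2 fold change 1.25, SE 0.21), Oasl2 (1.10, SE 0.14), Ifit1 (1.03, SE 0.17) and Irf9 (0.58, SE 0.091), with adjusted p from 0.0189 to 0.0472 by edgeR, while Slfn9 had -0.19. With IFN-γ, Ifngr2 was the only gene of both lists that edgeR called (0.54, SE 0.092, adjusted p = 0.0375 by edgeR). The interaction was called for none of them by edgeR or DESeq2, with 5 of 18 of the first list and 3 of 22 of the second at an unadjusted edgeR p under 0.05, against 10.7% of all genes tested. DESeq2 in addition called Ifngr2, Usp18 and Irf7 without IFN-γ and Socs3, Ifit1 and Oasl2 with IFN-γ between siRNAs, where it called 1.77% and 3.98% of 14993 genes.

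The ISRE core of the Schlafen promoters was also found in the promoters of 3 of 15 genes of the first list with a promoter in the table (Irf2, Socs1 and Stat2) and of 6 of 20 of the second (Eif2ak2, Ifit1, Ifit3, Oas1a, Oas1g and Oas3). A GAS match, absent from the Schlafen windows, was found in 5 of 15 and 5 of 20. These counts are of genes with a match in any promoter, whereas the shares over the whole table (3.44% ISRE core, 8.30% GAS) are of promoters. Of 13 other genes within 500 kb of the Schlafen cluster with a promoter in the table, 1 held an ISRE core (Taf15) and 0 a GAS match. Slfn9 and Slfn8, whose core is GAAAACGAAA, and Slfn5, whose core is GAAAAAGAAA, all hold the letters searched for. With IFN-γ, Slfn9 was called for both siRNAs, and Slfn8 only in siR_Nostrill cells without the filter on low counts. Slfn5, which had few reads, was not called. Whether the core has a part in these responses was not tested.

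Genes around the cluster were examined next. Of 18 other genes listed within 500 kb of it, 12 were tested, and edgeR called none in any of the 5 comparisons. At an unadjusted p under 0.05 it found 1 of the 12 with IFN-γ in siR_Ctrl cells and 5 in siR_Nostrill cells, against 14.6% and 21.9% of all genes tested. DESeq2 called Ccl5 with IFN-γ in siR_Ctrl cells and for siR_Nostrill with and without IFN-γ, Nle1 and Taf15 with IFN-γ in siR_Nostrill cells, and Taf15 for siR_Nostrill with IFN-γ. Over all genes DESeq2 called 5.59% with IFN-γ in siR_Ctrl cells, 8.87% in siR_Nostrill cells, and 1.77% without and 3.98% with IFN-γ between siRNAs. Their median log2 fold change with IFN-γ was 0.03 in siR_Ctrl cells and 0.16 in siR_Nostrill cells. The nearest tested neighbour outside the family, Nle1, a ribosome assembly factor 83.4 kb away, had -0.21 and -0.40. Ccl5, an interferon- and NF-κB-responsive chemokine 534 kb away, had 0.85 (SE 0.23, adjusted p = 0.0575 by edgeR) in siR_Ctrl cells, close to the value of Slfn9, and 0.40 in siR_Nostrill cells. Its level was 73.7 ± 16.2 FPKM in siR_Ctrl and 166 ± 25.3 FPKM in siR_Nostrill cells (SD, n = 3).

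**Figure D5:**
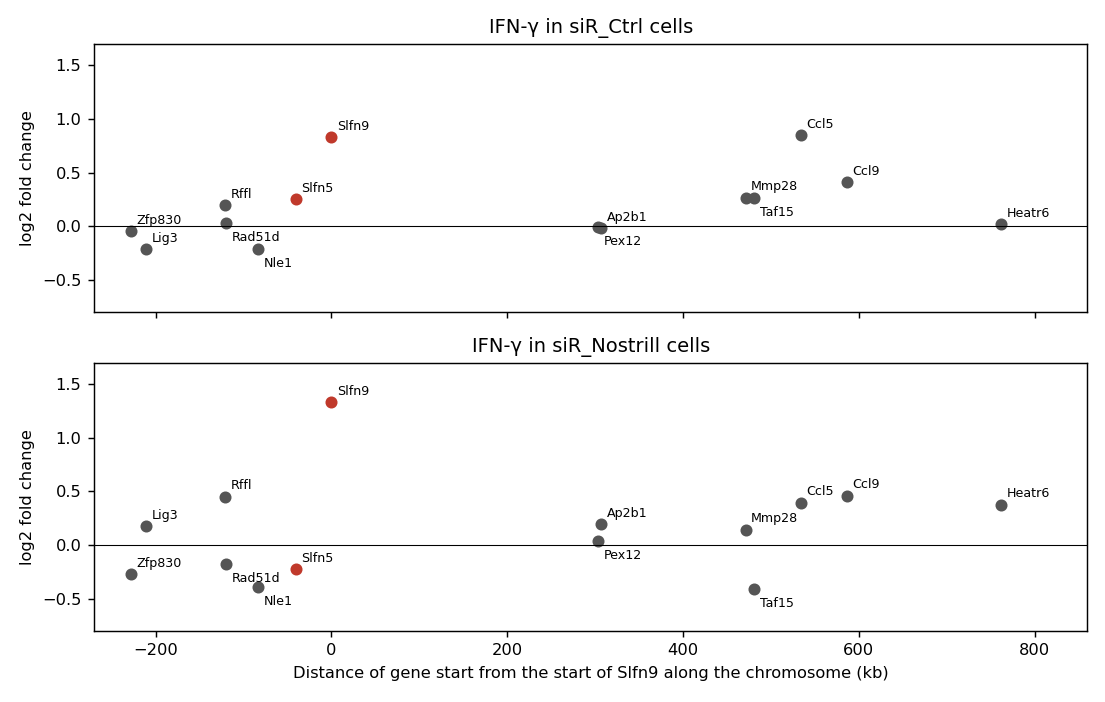
log2 fold change with IFN-γ of the tested genes within 500 kb of the Schlafen cluster, by the distance of their start from that of Slfn9 in kb, in siR_Ctrl cells (top) and siR_Nostrill cells (bottom). Slfn genes are red and other genes grey. Slfn9 stands at 0.83 and 1.33, and its tested neighbours between -0.21 and 0.85 in siR_Ctrl cells and between -0.41 and 0.46 in siR_Nostrill cells.

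The genes whose level over the 12 libraries was most like that of Slfn9, by Pearson correlation of log2 CPM among 11900 genes, were Ifi211 (r = 0.992), Zc3hav1 (r = 0.989) and Etnk1 (r = 0.987). The points share 4 groups, the depth of each library and the length trend, so the values are descriptions. Ifi211, of the interferon-inducible PYHIN family, rose with IFN-γ by 1.71 and 2.21 in siR_Ctrl and siR_Nostrill cells. Etnk1, an ethanolamine kinase, rose by 0.83 and 1.35. For Slfn5 the closest genes were Lmntd2 (r = 0.827), Unc13a (r = 0.811) and Tagap1 (r = 0.798), none of which was called with IFN-γ. Among cell type markers, Lck, a T cell kinase, went from 0.52 ± 0.061 to 1.37 ± 0.384 FPKM (SD, n = 3) with IFN-γ in siR_Nostrill cells, a log2 fold change of 1.38 (adjusted p = 0.0132 by edgeR). In siR_Ctrl cells it went from 0.53 ± 0.201 to 1.04 ± 0.135 FPKM (SD, n = 3), a log2 fold change of 1.04 that was not called (adjusted p = 0.0772 by edgeR), and the interaction was not called either (0.35, adjusted p = 0.628 by edgeR). Meanwhile Ptprc and Cd4 stayed at or below 0.02 FPKM and Cd79a at or below 0.36 FPKM. None of the 5 fibroblast markers tested was called in any comparison by edgeR or DESeq2, with 2 at an unadjusted edgeR p under 0.05 with IFN-γ for each siRNA, against 14.6% of all genes tested in siR_Ctrl and 21.9% in siR_Nostrill cells.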

How the data were processed

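RNA from IEC4.1 cells was sequenced in 12 libraries, 3 per group, with groups taken from the labels. The authors deposited for each library an estimated count per gene, not normalized, together with FPKM and TPM values scaled for length and depth. HISAT2 and Bowtie2 are the aligners that the published methods name, with GRCm38.p6 as the genome, while the counting tool is not named in the sources used here. The published methods speak of RPKM, whereas the deposited columns are headed FPKM. Counts were rounded and tested with edgeR 4.0.16 (quasi-likelihood, TMM, default filter on low counts, 12 libraries in 1 fit, Benjamini-Hochberg over 11900 genes, threshold 0.05) in R 4.3.3. Replicates are called biological by the study, but the labels name no separate cultures, so p-values measure the spread between these libraries.

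Alternatives were DESeq2 1.42.0, its size factors in edgeR, other filters, only the groups compared, a replicate block, limma 3.58.1 on FPKM, removal of the length trend (lowess, span 0.3), Slfn8 and Slfn9 summed, and each library left out. The edgeR, DESeq2 and limma fits were run on simulated counts that held no length trend, which does not check the removal of that trend. The permutation, pair and motif steps were not part of that run. Members, lists and alternatives were chosen with earlier results of these data known. Named genes were the members, other Slfn rows, genes of 2 lists and of the neighbourhood (those called in a comparison, the largest and smallest changes first), and the 3 genes most like each tested member. Names and positions came from RefSeq, which held 14958 of the gene IDs, and promoters from its GRCm38.p6 table, in which all 4 members were found. For some list and marker genes, values are not reported here.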

Additional observations from a re-analysis of the deposited data

How the results depend on the processing

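Slfn5 had 37.1 reads at most in a library and Slfn8 11.2. For IFN-γ in siR_Ctrl cells, Slfn9 had a log2 fold change of 0.83, which did not pass the threshold with only the groups compared (0.84), in limma on log2(FPKM + 1), whether for all genes or above a mean of 0.5 FPKM (0.65 in both), or on log2(FPKM + 0.1) (0.70), and 0.69 to 1.06 with single libraries left out, where 4 of 12 lost the call. The cause was not tested. In siR_Nostrill cells the range was 1.28 to 1.42. For siR_Nostrill without IFN-γ, Slfn9 turned from -0.19 to 0.12 with the length trend removed and ranged from -0.30 to 0.043 with libraries left out. With IFN-γ it passed the threshold with the length trend removed (0.25). For Slfn5, leaving out libraries gave -0.57 to 0.11 for IFN-γ in siR_Nostrill cells and -0.19 to 0.49 for siR_Nostrill with IFN-γ. Its level was below the filter of 5 CPM and the mean of 0.5 FPKM for limma, so these alternatives gave no value for it. Lengths for the length trend were taken from libraries with at least 0.5 FPKM, which Slfn5 never reached. Its own values were therefore not adjusted in that fit, and no result of it is given for Slfn5. Among the pairs, Slfn8 over Slfn5 went from 0.93 to 0.14 with 1 FPKM added (adjusted p = 0.05) and from 0.80 to 1.10 with libraries left out. Slfn9 over Slfn5 ranged from 0.92 to 1.35 with libraries left out. Slfn9 over Slfn8 went from 0.19 to 0.87 with 1 FPKM added and to -0.53 in CPM. The exact permutation test of Slfn9 kept its call with each library left out (p of 0.015 at most). On log2(FPKM + 1) the correlation with Slfn9 was 0.965 for Ifi211 (rank 46), 0.983 for Zc3hav1 (rank 7) and 0.979 for Etnk1 (rank 12), and that with Slfn5 was 0.834 for Lmntd2 (rank 1), 0.773 for Unc13a (rank 5) and 0.674 for Tagap1 (rank 33).

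The groups share replicate numbers, but same-numbered libraries did not deviate together (correlations from -0.49 to 0.73, 8 of 18 over 0.1). A replicate block left Slfn9 at 0.84 (adjusted p = 0.026) and 1.33 (adjusted p = 0.00174) with IFN-γ by edgeR and changed no call of Slfn9 or Slfn5.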
